A study of Mus musculus with 96 samples.

Results

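Several genes that act in DNA mismatch repair, or together with it, modify how fast a CAG repeat lengthens. Described here are 7 genes that act in that repair or together with it: Msh6, Msh3, Mlh3, Pms1, Pms2, Fan1 and Lig1. They were taken by gene name from the 48795 genes of the deposited tables. All 7 passed the filter on low counts in striatum and in cortex.

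Mismatch repair starts when a MutS dimer recognises a mispaired or looped stretch of DNA. MSH6 and MSH3 are the alternative partners in that dimer: the MSH6 form handles base mismatches and small loops, and the MSH3 form handles larger loops such as those that repeats make. A MutL dimer is then recruited, in which PMS2, MLH3 or PMS1 is the variable partner; PMS2 and MLH3 form endonucleases. LIG1 is the ligase that seals the nick at the end of repair and of lagging-strand synthesis. FAN1 is a nuclease that binds the MutL protein. In Huntington's disease, variants at MSH3, PMS1, PMS2, FAN1 and LIG1 are associated with age at onset, Mlh3 modifies repeat instability in mouse crosses, and the striatum is where the Htt repeat lengthens most.

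RNA was sequenced from striatum and cortex of 48 mice aged 6 months on a C57BL/6 background, 8 mice (4 males and 4 females) for each of 6 genotypes, so there were 96 libraries. The genotypes were Q140 Msh6-/-, Q140 Msh6+/-, Q140, Msh6-/-, Msh6+/- and wild type. Q140 is a knock-in allele of the mouse Htt gene with an expanded CAG repeat, carried in the heterozygous state; it is present in every cell. The labels give the Msh6 genotypes without describing the allele. Mice without Q140 and mice with both normal Msh6 copies (Msh6+/+, the Q140 and wild-type groups) served as the references.

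Libraries held 12.4 to 22.89 M counts (M for mega), and the median library held 19.41 M. The tissue labels matched 2 marker lists. The 12 striatal projection neuron markers summed to a median of 15815 CPM (counts scaled to library size) in striatum and 613 CPM in cortex of mice without Q140. The 8 markers of cortical glutamatergic neurons, 6 of which passed the filter in striatum, summed to 55.8 CPM in striatum and 2373 CPM in cortex. The library of the Q140 Msh6-/- mouse 21-3 stood apart in striatum, where choroid plexus and ependyma markers summed to 2707.7 CPM, against a group median of 42.1 CPM; the members' counts of calls were the same without it. CPM below are scaled between libraries by TMM and compare 1 gene between samples. FPKM, which is per length, compares genes.

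The 7 genes lie on 6 chromosomes (GRCm38). Msh6 is on chromosome 17 (87975062 to 87990892, plus strand), Msh3 on chromosome 13 (92211872 to 92355003, minus strand) and Mlh3 on chromosome 12 (85234520 to 85270599, minus strand). Pms1 is on chromosome 1 (53189187 to 53297018, minus strand) and Pms2 on chromosome 5 (143909964 to 143933968, plus strand), 109.0 Mb from Htt on the same chromosome. Fan1 (64346758 to 64374095, minus strand) and Lig1 (13277283 to 13311433, plus strand) share chromosome 7. Several members overlap other annotated genes: 934 bases of Pms2 lie over Rsph10b on the same strand, 1439 bases of Lig1 lie over 6330408A02Rik on the other strand, and 34 bases at the 3′ end of Msh6 lie over Fbxo11. Predicted genes overlap as well: Gm17135 (11392 bases) and Gm42421 (5794 bases) over Pms2, Gm28777 (1583 bases) over Pms1, and Gm20379 (1204 bases) over Msh3; none of these 4 passed the filter on low counts in striatum. How strand was handled in counting is unknown here, and counts of these members are uncertain to the extent of the overlaps. Pms1 and Pms2 start 77 and 117 bases from Ormdl1 and Aimp2, which run the other way.

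Promoter windows of 3 members are shown because they carry the results below: Msh6 is the gene the cross removes, and Msh3 and Mlh3 are the members that differed most firmly with Q140. Each runs from 250 bases before to 50 bases after the RefSeq start (GRCm38.p6), 5′ to 3′ on the gene's own strand, with capitals on 3 searched motifs, both strands: the GC box GGGCGG, the CCAAT box CCAAT and the E2F-like TTTNGCGC. The Msh6 window is chr17:87974800-87975099, plus strand. The Msh3 window is chr13:92354954-92355253, minus strand. The Mlh3 window is chr12:85270550-85270849, minus strand.
Msh6: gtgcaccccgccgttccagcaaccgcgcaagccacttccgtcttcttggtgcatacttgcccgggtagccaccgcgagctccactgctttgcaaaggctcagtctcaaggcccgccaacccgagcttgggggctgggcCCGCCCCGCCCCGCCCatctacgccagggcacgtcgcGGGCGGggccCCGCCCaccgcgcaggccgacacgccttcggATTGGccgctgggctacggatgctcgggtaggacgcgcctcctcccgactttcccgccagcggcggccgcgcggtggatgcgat
Msh3: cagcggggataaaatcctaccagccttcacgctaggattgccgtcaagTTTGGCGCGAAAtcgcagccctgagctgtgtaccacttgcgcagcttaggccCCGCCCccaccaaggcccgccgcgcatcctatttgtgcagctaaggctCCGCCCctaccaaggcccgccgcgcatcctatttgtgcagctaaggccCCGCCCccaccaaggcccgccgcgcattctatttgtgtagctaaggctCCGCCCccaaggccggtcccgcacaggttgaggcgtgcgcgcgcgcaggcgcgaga
Mlh3: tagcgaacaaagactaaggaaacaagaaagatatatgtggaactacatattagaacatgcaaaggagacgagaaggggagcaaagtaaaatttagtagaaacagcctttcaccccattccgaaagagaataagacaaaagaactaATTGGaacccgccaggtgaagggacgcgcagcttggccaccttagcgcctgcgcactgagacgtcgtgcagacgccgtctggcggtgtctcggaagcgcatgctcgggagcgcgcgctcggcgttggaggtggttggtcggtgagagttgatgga

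The Msh3 window held 4 GC boxes at positions -150, -102, -54 and -6, each 48 bases from the next, inside a repeated stretch. Its TTTNGCGC match at -202 overlapped a match on the other strand at -198. GC boxes were found in 35.7% of 32851 RefSeq windows of this length, CCAAT boxes in 37.4% and TTTNGCGC in 1.38%. The Msh6 window held 5 GC boxes and 1 CCAAT box, and the Mlh3 window held 1 CCAAT box and no GC box. Of the members not shown, Pms2 had 2 GC boxes and 3 CCAAT boxes, Pms1 had 1 and 2, and Fan1 and Lig1 had none of the 3 motifs. The Lig1 window, 1 of 3 listed for the gene, is set on a RefSeq start 108 bases from the GENCODE start of the gene, so its lack of matches describes that window only. A match is a description of letters and not a site. The windows also differed in base composition, with 65% G or C in Msh3, 71.7% in Msh6 and 51.7% in Mlh3.

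The Msh6 transcript followed the genotype labels and was reduced in Msh6-/- mice, with counts still present in each of them. In striatum it ran from 7.31 to 9.53 CPM (median 8.13) in Q140 Msh6-/- mice, 12.6 to 15.3 CPM (median 14.0) in Q140 Msh6+/- mice and 18.1 to 20.1 CPM (median 18.8) in Q140 mice. Without Q140 it ran from 6.93 to 11.1 CPM (median 8.03) in Msh6-/- mice, 11.96 to 15.6 CPM (median 13.9) in Msh6+/- mice and 14.6 to 18.4 CPM (median 17.6) in wild-type mice. The Msh6-/- ranges lay wholly below the Msh6+/+ ranges, whereas Msh6+/- and wild-type mice overlapped.

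In cortex the values were 7.33 to 8.96 CPM (median 8.13) in Q140 Msh6-/- mice, 11.9 to 14.5 CPM (median 13.4) in Q140 Msh6+/- mice and 19.0 to 21.8 CPM (median 20.2) in Q140 mice. Without Q140 they were 7.65 to 10.1 CPM (median 8.94) in Msh6-/- mice, 12.8 to 16.3 CPM (median 14.0) in Msh6+/- mice and 18.2 to 20.8 CPM (median 19.3) in wild-type mice. In cortex no Msh6+/- or Msh6-/- range overlapped its Msh6+/+ range. As a share of the Msh6+/+ mean of the same Q140 status, Msh6-/- mice kept 43.1% (with Q140) and 46.6% (without) in striatum, and 40.7% and 45.3% in cortex. Msh6+/- mice kept 73.1% and 79.5% in striatum, and 66.2% and 72.4% in cortex.

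By edgeR's quasi-likelihood test, Msh6 was lower in all 8 pairwise comparisons of Msh6 genotype. In striatum the log2 fold change was -1.21 ± 0.07 (SE; adjusted p = 1.31e-19) in Q140 Msh6-/- against Q140 mice and -1.099 ± 0.066 (adjusted p = 1.05e-17) in Msh6-/- against wild-type mice. In cortex the same changes were -1.29 ± 0.05 (adjusted p = 8.09e-27) and -1.14 ± 0.05 (adjusted p = 2.61e-24). The heterozygous change was -0.45 ± 0.06 with Q140 and -0.33 ± 0.06 without in striatum (adjusted p = 4.77e-05 and 0.0367), and -0.59 ± 0.05 and -0.46 ± 0.05 in cortex (adjusted p = 4.1e-13 and 2.85e-09). The striatal Msh6+/- call against wild type was lost when only those groups were fitted (adjusted p = 0.163), with the animal number prefix as a covariate (0.101) and on log2(FPKM + 0.1) (0.183); its log2 fold change was -0.33, -0.32 and -0.31 there.

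Loss of Msh6 was not accompanied by a called change in any other member. Of all genes tested, 0.177% were called in Q140 Msh6-/- against Q140 striatum, 0.0971% in Msh6-/- against wild-type striatum and 0.263% when averaged over Q140 status, and Msh6 was the 1 member among them each time. The same held for Q140 Msh6+/- against Q140 striatum (0.00571% called) and Msh6+/- against wild-type striatum (0.0114%). In cortex the shares were 0.153%, 0.131%, 0.284%, 0.0113% and 0.00567% for the same comparisons in that order, again with Msh6 as the 1 member. Averaged over Q140 status, the log2 fold changes of the other 6 members in Msh6-/- mice lay between -0.05 (Pms1) and 0.05 (Fan1) in striatum and between -0.01 (Pms2) and 0.06 (Fan1) in cortex. Within a Q140 state the striatal values ran from -0.17 (Pms1) to 0.04 (Mlh3) with Q140. They ran from -0.03 (Msh3) to 0.09 (Fan1) without it. The Pms1 value with Q140 had an unadjusted edgeR p of 0.0343 (adjusted p = 0.888). In cortex the values ran from -0.04 (Lig1) to 0.05 (Mlh3) with Q140 and from -0.05 (Pms2) to 0.12 (Lig1) without. For Msh3, which encodes the alternative partner, the 95% interval of the averaged change was -0.11 to 0.03 in striatum and -0.07 to 0.08 in cortex.

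The transcript ratio of the alternative partners is given as a description: its denominator is the transcript that the genotype reduces, and Msh3 was not called as changed, so its order over Msh6 genotypes restates the fall of Msh6. The ratio of Msh3 to Msh6 FPKM in striatum ran from 1.12 to 1.55 (median 1.32) in Q140 Msh6-/- mice, 0.731 to 0.883 (median 0.767) in Q140 Msh6+/- mice and 0.53 to 0.636 (median 0.577) in Q140 mice. Without Q140 it ran from 0.856 to 1.44 (median 1.22) in Msh6-/- mice, 0.581 to 0.894 (median 0.762) in Msh6+/- mice and 0.454 to 0.683 (median 0.562) in wild-type mice. The Msh6-/- mice stood above all Msh6+/+ mice in this ratio, in either Q140 state.

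In cortex the median ratio was 0.922 in Q140 Msh6-/-, 0.565 in Q140 Msh6+/- and 0.379 in Q140 mice. It was 0.846 in Msh6-/-, 0.554 in Msh6+/- and 0.396 in wild-type mice. The size of the ratio depends on the gene length used: the deposited FPKM divides Msh3 by 11254 bases, whereas its longest coding transcript has 3946, and with that transcript length the wild-type median was 1.60 in striatum and 1.13 in cortex. The order of the genotypes does not depend on that length.

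**Figure D1:**
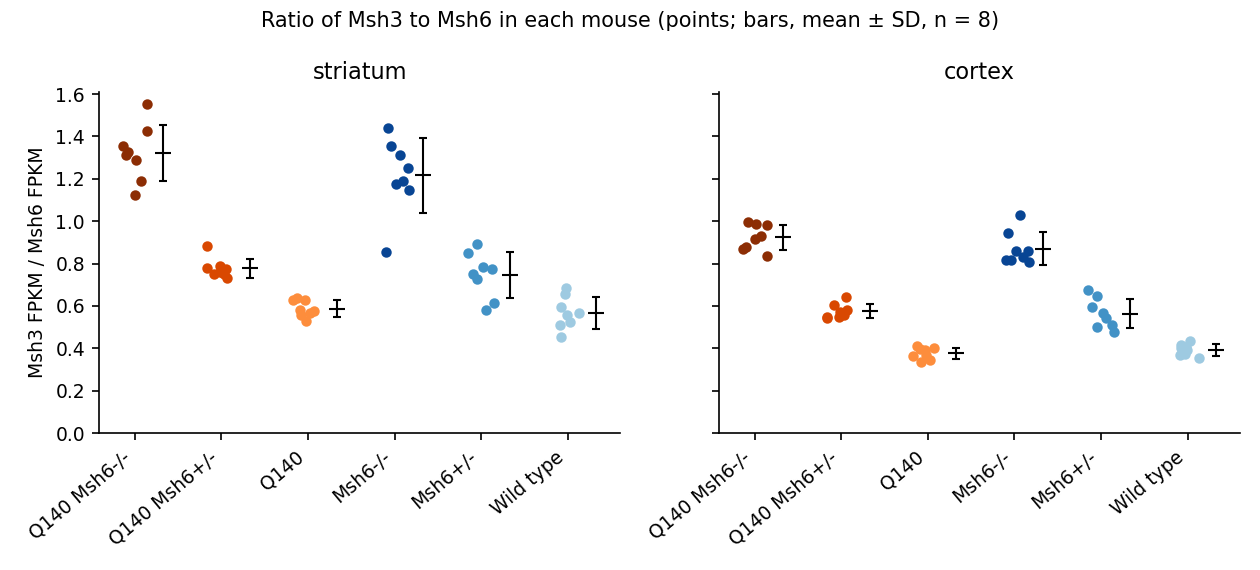
Ratio of Msh3 FPKM to Msh6 FPKM (y axis) in each mouse of the 6 genotypes in striatum (left) and cortex (right); points are mice and bars the mean ± SD of 8. Striatal medians are 1.32 in Q140 Msh6-/-, 0.577 in Q140, 1.22 in Msh6-/- and 0.562 in wild-type mice.

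With Q140, the striatal levels of Msh3 and Mlh3 were higher than in mice without it, with means of 28.8 ± 1.64 CPM against 26.2 ± 2.19 CPM for Msh3 and 42.0 ± 2.33 CPM against 38.6 ± 2.28 CPM for Mlh3 (SD, n = 24 each). Msh3 ran from 25.4 to 31.8 CPM (median 29.0) in the 24 mice with Q140, against 21.6 to 29.8 CPM (median 25.7) in the 24 mice without. Of mice with Q140, 23 of 24 lay above the mean of mice without Q140, and the ranges overlapped. How many other genes show such a count was not tested, and 52.7% of all genes were called with Q140 averaged.

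By genotype, striatal Msh3 was 25.4 to 31.8 CPM (median 28.1) in Q140 Msh6-/- mice, against 24.3 to 26.8 CPM (median 25.2) in Msh6-/- mice. It was 27.0 to 30.4 CPM (median 28.5) in Q140 Msh6+/- mice, against 23.8 to 29.8 CPM (median 27.8) in Msh6+/- mice, and 27.8 to 30.9 CPM (median 29.6) in Q140 mice, against 21.6 to 29.3 CPM (median 25.8) in wild-type mice. All 3 pairs of ranges overlapped.

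Mlh3, a MutL partner, ran from 36.5 to 46.1 CPM (median 41.8) in striata with Q140, against 31.1 to 41.6 CPM (median 39.2) without. It was 39.8 to 46.1 CPM (median 43.1) in Q140 Msh6-/- mice, against 35.9 to 39.7 CPM (median 38.6) in Msh6-/- mice, the 1 pair whose ranges did not overlap. The others were 36.5 to 44.3 CPM (median 41.5) in Q140 Msh6+/- against 35.5 to 41.6 CPM (median 38.4) in Msh6+/- mice, and 39.1 to 45.4 CPM (median 41.4) in Q140 against 31.1 to 41.0 CPM (median 39.96) in wild-type mice. In Q140 Msh6-/- against Msh6-/- striatum 33.0% of all genes were called. How many genes had ranges that did not overlap there was not counted.

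Lig1 ran from 5.98 to 8.90 CPM (median 7.13) in striata with Q140, against 4.56 to 8.30 CPM (median 6.63) without. Its spread within a group was wider than that of Msh3 and Mlh3, with a median coefficient of variation of 13.5% over striatal groups, against 6.21% for Msh3 and 5.39% for Mlh3.

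**Figure D2:**
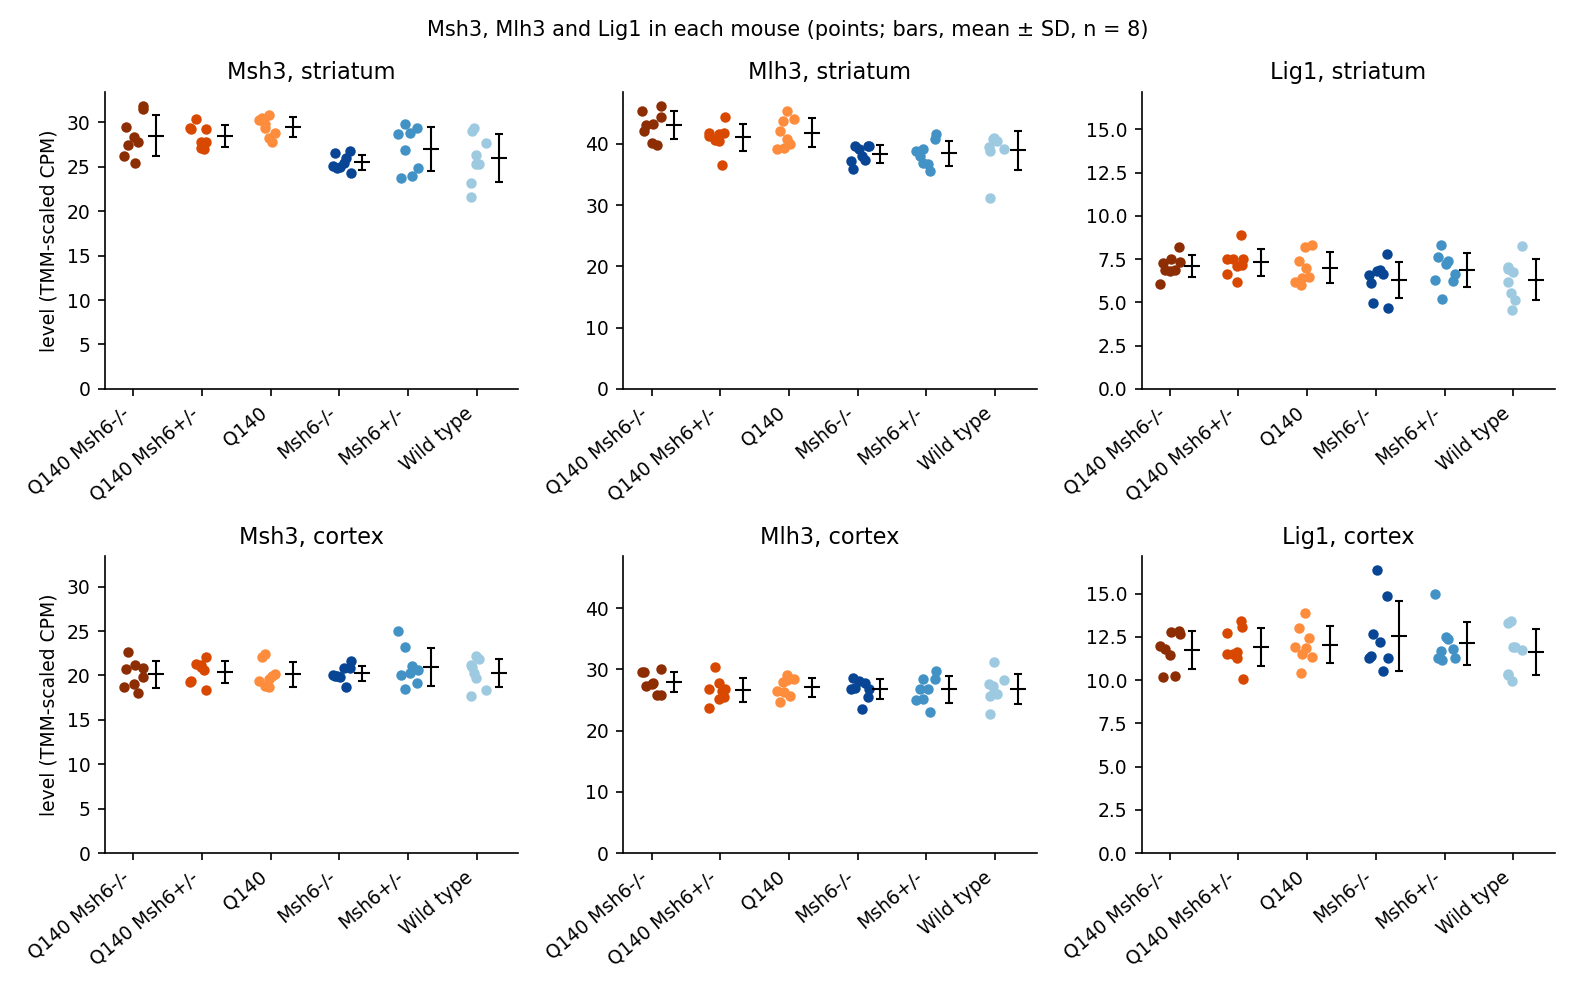
Levels of Msh3, Mlh3 and Lig1 (TMM-scaled CPM, y axes starting at 0) in each mouse of the 6 genotypes, in striatum (top) and cortex (bottom); points are mice and bars the mean ± SD of 8. The 3 Q140 groups sit to the left of the 3 groups without Q140, and in striatum their Msh3 means lie between 28.5 and 29.5 CPM, above 25.5 to 27.0 CPM without Q140.

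Averaged over the 3 Msh6 genotypes, 3 of 7 members rose with Q140 in striatum and none fell, where 52.7% of the 17503 genes tested were called. Mlh3 changed by 0.12 ± 0.02 (log2, SE; edgeR adjusted p = 4.06e-05), Msh3 by 0.14 ± 0.03 (adjusted p = 6.58e-05) and Lig1 by 0.13 ± 0.06 (adjusted p = 0.04). The members' count is thus near the background share of this comparison. All 7 log2 fold changes were above 0, with a median of 0.06, against 0.02 over all genes tested. The share of all genes above 0 was not counted, so the shared sign is a description only. Pms2 (0.06 ± 0.03, adjusted p = 0.0917), Msh6 (0.05 ± 0.04, 0.269), Fan1 (0.04 ± 0.03, 0.313) and Pms1 (0.04 ± 0.05, 0.449) did not pass. The Lig1 call was lost with RLE scaling (adjusted p = 0.0553), without the filter on low counts (0.0768) and with the animal number prefix as a covariate (0.0615).

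Within single Msh6 genotypes fewer members passed. In Q140 against wild-type striatum, where 29.7% of genes were called, 1 member did: Msh3, by 0.18 ± 0.05 (adjusted p = 0.00397). In Q140 Msh6-/- against Msh6-/- striatum (33.0% called) Mlh3 changed by 0.17 ± 0.04 (adjusted p = 0.00175) and Msh3 by 0.16 ± 0.05 (adjusted p = 0.0127). In Q140 Msh6+/- against Msh6+/- striatum (31.2% called) edgeR and DESeq2 called 0 members, and 1 had an unadjusted p under 0.05, Mlh3 at 0.09 ± 0.04 (adjusted p = 0.0868). Msh3 was at 0.08 ± 0.05 there (adjusted p = 0.258).

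The Q140 effect was not shown to differ with Msh6 genotype. In striatum the Q140 effect among Msh6-/- animals, less the effect among Msh6+/+ animals, was -0.02 ± 0.07 for Msh3 (95% interval -0.16 to 0.12) and 0.06 ± 0.06 for Mlh3 (-0.06 to 0.18). edgeR and DESeq2 called no member in either tissue, for Msh6-/- or for Msh6+/-, where edgeR called 0% of all genes in striatum and 0% in cortex. Unadjusted p was under 0.05 for 1 member in the Msh6-/- test in each tissue: Pms1 in striatum (-0.24 ± 0.11, adjusted p = 0.982) and Msh6 itself in cortex (-0.15 ± 0.07, adjusted p = 1). It was under 0.05 for 0 members in the Msh6+/- tests.

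In cortex, edgeR called no member with Q140. The shares of all genes called were 0.0170% in Q140 against wild type, 0.193% in Q140 Msh6+/- against Msh6+/-, 0.136% in Q140 Msh6-/- against Msh6-/- and 1.54% averaged, and 0 members had an unadjusted p under 0.05 in any of them. DESeq2 called 0 members averaged and in Msh6-/- mice; in the other 2 comparisons it gave no member an adjusted p. Msh3 had a median of 20.1 CPM in cortices with Q140, against 20.3 CPM without, and Mlh3 27.0 CPM with Q140, against 26.8 CPM without. The 95% intervals of the 7 averaged log2 fold changes lay between -0.11 (Lig1) and 0.18 (Pms1).

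**Figure D3:**
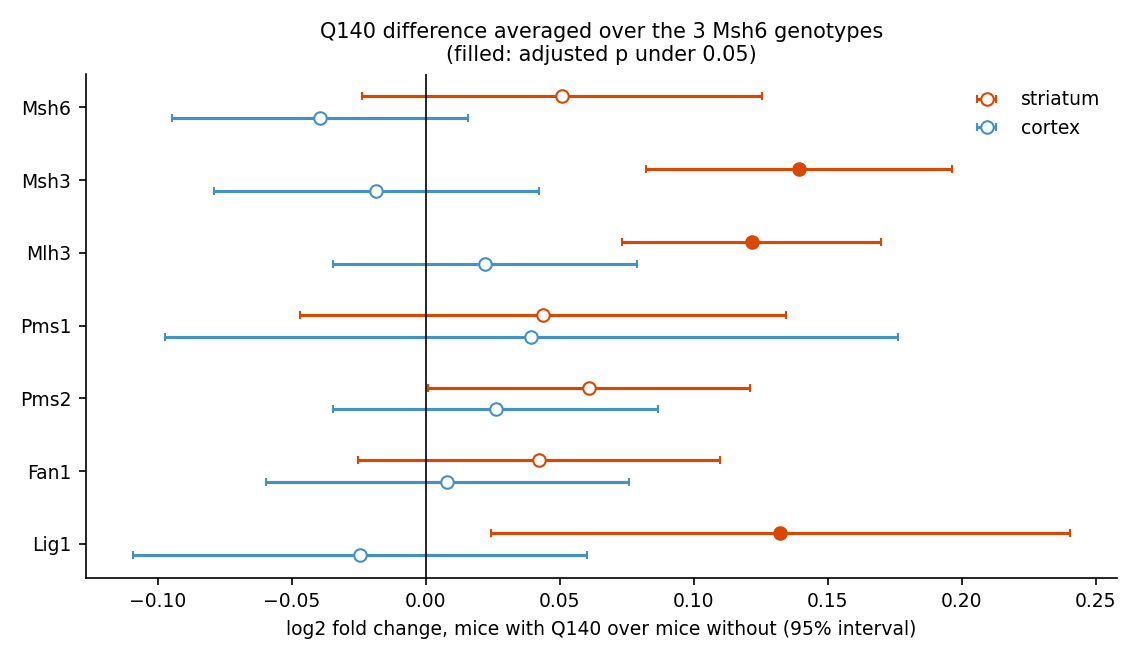
Log2 fold change of mice with Q140 over mice without (x axis, 95% interval), averaged over the 3 Msh6 genotypes, for the 7 members in striatum and cortex; filled points have an edgeR adjusted p under 0.05. The striatal values of Msh3 (0.14), Mlh3 (0.12) and Lig1 (0.13) are filled, and none of the cortical values is. Intervals are normal intervals from the SE.

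The difference between tissues was tested directly. The Q140 effect in striatum exceeded that in cortex by 0.16 ± 0.04 for Msh3 (edgeR adjusted p = 0.00139) and by 0.10 ± 0.04 for Mlh3 (adjusted p = 0.0248), averaged over the 3 Msh6 genotypes, in a comparison where 37.5% of genes were called. The Mlh3 call was lost with RLE scaling (adjusted p = 0.0703), without the filter (0.151) and with DESeq2 (0.0651). Lig1 stood at 0.16 ± 0.07 (adjusted p = 0.0613), and passed with the animal as a block (0.16, adjusted p = 0.032). In Msh6+/+ mice alone (14.3% called) edgeR called 0 members, with 1 unadjusted p under 0.05, Msh3 at 0.20 ± 0.07 (adjusted p = 0.0643; 0.042 with the animal as a block, and DESeq2 called none). The Msh6-/- effect was not called as different between tissues for any member (0.0163% of genes called; 0 members at an unadjusted p under 0.05, and 0 by DESeq2).

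Markers of several cell types changed with Q140 in striatum beside these changes, in the comparison where 52.7% of all genes were called. The counts for oligodendrocytes, their precursors and dividing cells are near or under that share. So is the choroid plexus and ependyma count without the library of mouse 21-3. The 12 projection neuron markers, all detected, summed to 8776 to 9763 CPM with Q140, against 14238 to 17973 CPM without, and 11 of 12 fell and 1 rose. The 8 astrocyte markers summed to 3132 to 3786 CPM with Q140, against 3687 to 4410 CPM without (6 fell, 1 rose). The 8 microglial markers summed to 254.6 to 309.3 CPM, against 288.7 to 365.0 CPM (8 fell), the 7 endothelial markers to 166.7 to 205.5 CPM, against 194.3 to 265.3 CPM (7 fell), and the 8 oligodendrocyte markers to 4475 to 6553 CPM, against 5424 to 7996 CPM (5 fell). Of the 6 markers of oligodendrocyte precursors 2 fell, or 3 without the library of mouse 21-3. The 10 markers of dividing cells summed to 22.0 to 44.6 CPM, against 18.1 to 50.6 CPM, so the ranges overlapped. Of these markers only Mcm2 and Mcm6 were called higher, and Mki67 as well without that library. Of the 4 choroid plexus and ependyma markers that passed the filter, 3 were higher with Q140 (Clic6, Kl and Foxj1). They summed to 28.2 to 2708 CPM (median 39.2) with Q140, against 22.4 to 50.5 CPM (median 31.9) without, and the highest value is the library of mouse 21-3. Without that library, an alternative added after seeing the data, Clic6 and Kl were called, and the sums were 28.2 to 60.4 CPM (median 38.4) with Q140, against 22.4 to 50.5 CPM (median 31.9) without. The part of these shifts in the members' changes was not tested. In tissue RNA, fewer cells of a type and less RNA per cell cannot be told apart.

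Counts of calls depended on the measure and test used. The deposited FPKM are scaled by the column total and were tested with limma under another filter on low values, so the effect of scaling alone is not separated there. On log2(FPKM + 0.1) limma called 8237 genes higher and 2530 lower with Q140 averaged in striatum, where edgeR on TMM-scaled counts called 5098 higher and 4127 lower. With RLE in place of TMM, which changes scaling alone, edgeR called 4722 higher and 4391 lower. In Q140 against wild-type striatum the split was 5370 to 1509 on FPKM and 2719 to 2482 on counts, in Q140 Msh6+/- against Msh6+/- 5144 to 1751 and 2847 to 2615, and in Q140 Msh6-/- against Msh6-/- 5648 to 1657 and 3118 to 2658. The split also moved for the Q140 effect of striatum minus cortex (averaged, 6105 to 2035 and 3939 to 2980; Msh6+/+, 2778 to 917 and 1368 to 1271), for Q140 in cortex (99 to 85 and 83 to 188) and for females against males in striatum (313 to 602 and 544 to 426). For the Q140 effect of striatum minus cortex the balance turned the other way with RLE (averaged, 3253 higher and 3419 lower; Msh6+/+, 1087 and 1478), with DESeq2 (averaged, 3272 and 3435; Msh6+/+, 1148 and 1524) and without the filter (averaged, 2761 and 3322; Msh6+/+, 807 and 1282). Within single Msh6 genotypes in striatum the balance also moved. Q140 against wild type gave 2440 higher and 2646 lower with RLE, 2439 and 2642 with DESeq2, and 2124 and 2424 without the filter. Q140 Msh6+/- against Msh6+/- gave 2615 and 2737, 2577 and 2735, and 2380 and 2456 in that order. Q140 Msh6-/- against Msh6-/- gave 2838 and 2835, 2787 and 2822, and 2587 and 2536. On log2(FPKM + 0.1) with Q140 averaged in striatum, 6 members rose, all but Pms1. The median of all genes was 0.08 there, against 0.02 on counts.

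Other genes of the pathway were followed as a list of 21, of which 20 were tested in striatum. With Q140 averaged, 10 were higher and 2 lower in striatum, with a median log2 fold change of 0.07, against 0.02 over all genes tested; 52.7% of all genes were called in this comparison, so the list's share is near the background. Rpa1, a subunit of the single-strand binding complex, was higher by 0.17 ± 0.02 (edgeR adjusted p = 2e-09) and Rfc2, a subunit of the clamp loader, by 0.16 ± 0.03 (adjusted p = 2.24e-06). Rfc5, of the same clamp loader, was lower by 0.52 on the log2 scale (-0.52 ± 0.04, adjusted p = 1.07e-15). In cortex, where 19 were tested, the median was -0.01. Of 5 FAN1 partners and genes at other onset modifier loci, Rrm2b, a subunit of ribonucleotide reductase, was higher by 0.28 ± 0.02 (adjusted p = 1.3e-14), and Fancd2, which recruits FAN1 to crosslinks, was lower at -0.49 ± 0.07 (adjusted p = 6.84e-08).

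Genes that face or overlap members are given for Q140 averaged in striatum, where 52.7% of all genes were called. Of the members they face or overlap, Lig1 was called and Msh6, Pms1 and Pms2 were not. No neighbour of Msh3 or Mlh3 is given. These values therefore do not show whether neighbours and members move together. Fbxo11 and 6330408A02Rik, which overlap Msh6 and Lig1, were at -0.02 ± 0.02 (adjusted p = 0.344) and 0.05 ± 0.03 (adjusted p = 0.143) with Q140 in striatum. Ormdl1, a regulator of sphingolipid synthesis that faces Pms1, was higher by 0.12 ± 0.05 (adjusted p = 0.0245), and Aimp2, which faces Pms2, was at -0.01 ± 0.04 (adjusted p = 0.899). Rsph10b, which overlaps the 3′ end of Pms2, was lower at -0.19 ± 0.06 (adjusted p = 0.00551).

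The 7 members differed between tissues more than with Q140. All 7 passed the test of striatum against cortex averaged over genotypes, as did 87.1% of 18440 genes, and all 7 passed in wild-type mice, as did 72.4%. Averaged over genotypes, 4 were higher in striatum: Mlh3 by 0.55 ± 0.02 (edgeR adjusted p = 8.95e-47), Msh3 by 0.41 ± 0.02 (6.9e-33), Pms1 by 0.35 ± 0.04 (9.69e-13) and Fan1 by 0.34 ± 0.02 (3.38e-24). The 3 lower ones were Lig1 at -0.85 ± 0.03 (2.96e-41), Pms2 at -0.32 ± 0.02 (3.45e-25) and Msh6 at -0.09 ± 0.02 (0.000335). Of the 3 members that rose with Q140 in striatum, Msh3 and Mlh3 were higher in striatum than in cortex and Lig1 was lower.

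Within mice the direction was nearly uniform for the members other than Msh6. FPKM was higher in striatum than in cortex of the same mouse in 48 of 48 mice for Mlh3 and Fan1, 47 for Msh3 and Pms1, 15 for Msh6, 1 for Pms2 and 0 for Lig1. The median ratio of striatum to cortex FPKM was 1.51 for Mlh3, 1.37 for Msh3, 1.30 for Pms1, 1.28 for Fan1, 0.94 for Msh6, 0.809 for Pms2 and 0.578 for Lig1. For Lig1 it ran from 0.381 to 0.76.

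**Figure D4:**
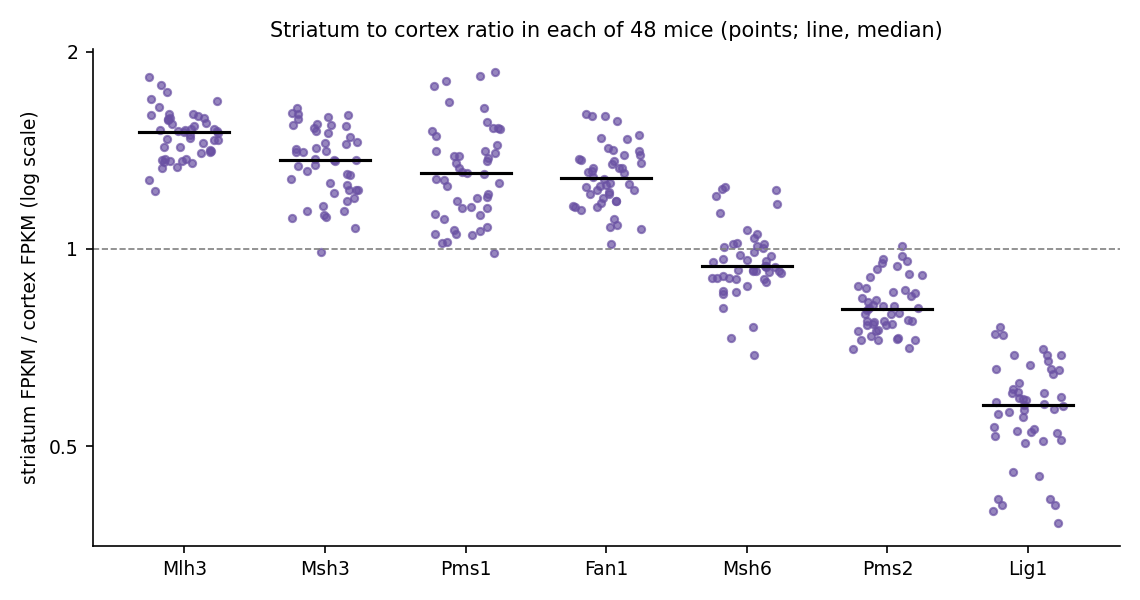
Ratio of striatum FPKM to cortex FPKM (y axis, log scale) of the 7 members in each of 48 mice; points are mice and lines the medians. Medians lie between 1.51 for Mlh3 and 0.578 for Lig1, and every Lig1 point lies below 1.

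On the per-length scale, Mlh3 stood highest in wild-type striatum, at 5.50 to 7.47 FPKM (median 7.12), followed by Msh6 at 3.32 to 4.21 FPKM (median 4.04). Msh3 (median 2.25), Fan1 (2.07), Pms2 (1.95) and Lig1 (1.48) followed, each overlapping its neighbour in that order, and Pms1 was lowest at 0.414 to 0.648 FPKM (median 0.558). In wild-type cortex Mlh3 (median 4.90 FPKM) and Msh6 (4.51) overlapped at the top, Lig1 (2.75) overlapped Pms2 (2.58), Msh3 (1.83) overlapped Fan1 (1.69), and Pms1 (0.412) was again lowest.

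The order rests on the gene lengths. Deposited lengths were 2.85-fold the longest coding transcript for Msh3, 2.47-fold for Pms1, 1.75-fold for Fan1, 1.48-fold for Pms2 and 1.34-fold for Lig1. They were 1.00-fold for Msh6 and Mlh3. With coding transcript lengths, a choice made after the values were seen, Msh3 had a median of 6.41 FPKM in wild-type striatum, overlapping Mlh3 (7.10), and of 5.21 FPKM in wild-type cortex, overlapping Mlh3 (4.88). Msh6 then had lower medians than Msh3, at 4.04 FPKM in striatum and 4.52 in cortex. Pms1 remained the lowest by median at 1.38 FPKM in striatum and 1.02 in cortex. In striatum its range overlapped that of Lig1 (median 2.00).

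The sexes differed in 1 member. Pms2 ran from 16.3 to 22.7 CPM (median 19.7) in the cortex of 24 females, against 19.1 to 24.4 CPM (median 21.5) in 24 males. It was lower in females by log2 -0.14 ± 0.03 (edgeR adjusted p = 0.00391), where 6.31% of genes were called. In striatum (5.54% called) edgeR and DESeq2 called 0 members; Pms2 was at -0.07 ± 0.03 (adjusted p = 0.187) and Fan1 at -0.10 ± 0.03 (adjusted p = 0.0817), the 2 members with an unadjusted p under 0.05. Whether the sex difference of Pms2 differs between tissues was not tested.

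Levels of the members were weakly related among mice of a genotype. After genotype means were taken out, r between log2 CPM of the 21 pairs of members across 48 libraries had a median of 0.095 in striatum (-0.24 to 0.47) and 0.077 in cortex (-0.33 to 0.34). The highest were Pms1 with Fan1 (0.47) and Pms2 with Lig1 (0.46) in striatum, and Pms2 with Lig1 (0.34) in cortex. Sex was not taken out, and the female against male log2 fold change was below 0 for both genes of each of these pairs. These libraries also share depth and dissection, and weak values in such counts are no finding.

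Among 12092 named genes, likeness to each member was taken as r of log2 CPM, averaged over the tissues (48 libraries each, genotype differences included), and genes among the 2 most like each are given. Msh6 went with Rps4l (mean r = 0.70). Msh3 went with Pkia (0.57) and Ccdc71l (0.55), and Mlh3 with Aph1b (0.53) and Arhgap26 (0.52). Pms2 went with Gcfc2 (0.65) and Aloxe3 (0.63), Lig1 with Tacc3 (0.55) and Cep164 (0.50), Fan1 with Vstm5 (0.45) and Eml2 (0.43), and Pms1 with Rbm4b (0.42) and Zfp974 (0.41). The genotype groups shape the values for Msh6, whose levels fall into 3 tiers. The values for Msh3 and Mlh3 include their striatal difference with Q140, where 52.7% of all genes were called. Their r was higher in striatum than in cortex, such as 0.704 and 0.446 for Pkia. It was lower in striatum for Gcfc2, Aloxe3 and Rbm4b. These are the highest of 12092 genes, and the level that chance would give was not computed.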

How the data were processed

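The authors deposited integer read counts per gene and FPKM for 96 libraries. Per the labels' protocols, RNA came from RNeasy kits and the TruSeq libraries were stranded. STAR 2.7.5c, SAMtools 1.10, HTSeq 0.12.3 and GRCm38 are named by the submitters' processing notes. Neither HTSeq's strand option nor the annotation's release is given in the sources used here. The deposited FPKM equal the count over a fixed gene length and the column total.

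From the counts, each tissue's 48 libraries were fitted with edgeR 4.0.16 (R 4.3.3): quasi-likelihood, TMM, filterByExpr (minimum count 10, total 15), 6 genotypes plus sex. Tissue comparisons used all 96 libraries. Adjusted p is Benjamini-Hochberg over all genes tested, threshold 0.05; ± on log2 values is SE. The animal number is given for both tissues of a mouse. Across 16806 genes the median r of same-animal residuals was 0.145, against -0.00382 for other animals. The reported edgeR tests between tissues did not use this pairing and took the 2 libraries of a mouse as separate. Only the alternative with the animal as a block used it. Mice were the replicates. The code was tested on simulated data.

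Alternatives were RLE scaling, no filter, DESeq2 1.42.0, the animal number prefix as covariate, only the groups compared, limma 3.58.1 on log2(FPKM + 0.1) or + 1 (mean FPKM at least 0.1), the library of mouse 21-3 left out, and the animal as a replicate block. The animal number prefix was entered as a number, and the sample titles do not say what it stands for. It is uneven over genotypes: no wild-type mouse had a higher prefix than any Q140 Msh6-/- mouse. A call lost with this covariate can therefore not be told apart from its confounding with genotype. Positions are from GENCODE M21, which held 48349 of 48795 identifiers, and promoters from RefSeq.

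The members and lists were chosen with earlier results of these data known. Named are the 7 members, up to 4 called genes a list with the smallest adjusted p, genes overlapping a member or starting within 1000 bases on the other strand, and the 2 genes most like each member (mean log2 CPM at least 1, prior count 1). Some genes these rules name are not reported here, and a planned search of protein motifs was not run.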

Additional observations from a re-analysis of the deposited data

Results flagged for a closer look

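Within single groups of 8 mice, 4 of the 84 groups tested (7 members in 12 groups) held a mouse set apart from the rest by Dixon's gap test at the 95% level, a share that chance alone would give at about 1 in 20. Msh6 in Msh6-/- striatum was highest in mouse 24-3, at 11.1 CPM, with the next at 8.24 CPM. Msh6 in wild-type striatum was lowest in mouse 16-2, at 14.6 CPM, with the next at 16.9 CPM. Mlh3 in wild-type striatum was lowest in mouse 21-1, at 31.1 CPM, with the next at 38.8 CPM. That mouse was also lowest of its group for striatal Msh3, at 21.6 CPM with the next at 23.2 CPM, though not set apart by the gap test. No fit left it out. Lig1 in Msh6+/- cortex was highest in mouse 22-1, at 15.0 CPM, with the next at 12.5 CPM.

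The Q140 effect differed between tissues by the direct test for Msh3 (striatum minus cortex 0.16 on the log2 scale, edgeR adjusted p = 0.00139) and for Mlh3 (0.10, adjusted p = 0.0248), both averaged over the 3 Msh6 genotypes. The Mlh3 call was lost with RLE scaling (adjusted p = 0.0703), without the filter on low counts (0.151) and with DESeq2 (0.0651).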

How the results depend on the processing

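Counts of members called were within 1.5 times the reported count except as follows. On log2(FPKM + 0.1) and log2(FPKM + 1), 6 and 6 members were called in Q140 against wild-type striatum, 2 and 2 in Q140 Msh6+/- against Msh6+/- striatum, 6 and 7 with Q140 averaged in striatum, 1 and 1 (Msh3) for the striatal minus cortical Q140 effect in Msh6+/+ mice, and 4 and 4 for the same averaged. Those fits change the test, transform and filter together with the scaling, and were not separated. In Msh6+/- against wild-type striatum 0 members were called on either FPKM scale, with the prefix as covariate, and with only the groups compared. For the averaged striatal minus cortical Q140 effect, 1 (Msh3) was called with RLE, without the filter and with DESeq2. With the animal as a replicate block, 1 (Msh3) was called for that effect in Msh6+/+ mice and 3 averaged; the block changed no other call. Without the library of mouse 21-3 every count was as reported. For the Q140 comparison averaged over Msh6 genotypes, fitting only the groups compared is the reported fit. No called member reversed direction under any alternative run; of 1162 values of member comparisons never called, 44 had the other sign, none beyond 0.0423. The cause of these shifts was not tested. DESeq2 left an adjusted p to no member in cortex for Q140 against wild type and Q140 Msh6+/- against Msh6+/-, so it is silent there. In striatum, Pms1 and Lig1 had the lowest CPM and the widest spread, which limits them most.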
